A study of Mus musculus with 4 samples.

Results

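Late in spermatogenesis the DNA of round spermatids gives up most of its histones. Transition proteins take their place first, and protamines, small proteins rich in arginine, then pack the DNA of the sperm head. The mRNAs of these proteins are made in round spermatids and stored before they are translated in elongating spermatids, so that an mRNA level is not a protein level. The genes described are those of the protamines Prm1 and Prm2, of Prm3, of the transition proteins Tnp1 and Tnp2, and of the chromatin factors Brdt and Chd5, which act on histones before their removal. All probe sets that the array's annotation pairs with these 7 symbols were taken, whatever their values. They are 7 probe sets, 1 for each gene, among 18820 genes with a value of their own and 23099 named probe sets.

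The samples were whole testes of mice, and the methods give an age of 3 to 4 months for the animals of the study. In the Azin2 KO mice, whose background is mixed C57BL/6, a β-Geo cassette sits inside the Azin2 locus, truncates the gene of the antizyme inhibitor AZIN2 and places a bacterial reporter under the Azin2 promoter. The mutation is not limited to germ cells. WT mice carry no cassette, and their strain is not stated separately. Each genotype was measured on 2 Affymetrix Mouse Gene 1.1 ST arrays, each with a pool of RNA from 3 mice, so that the error is the spread between 2 pools. Values are normalized log2 expression from RMA, on which a difference of 1 is a fold of 2. In whole testis, fewer spermatids and less mRNA per spermatid cannot be told apart.

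The label of the KO pools was checked on the targeted gene. Azin2 was at 7.36 and 7.14 in KO replicates 1 and 2, against 10.16 and 9.998 in WT replicates 1 and 2, a log2 fold change of -2.83 (adjusted p = 0.0250 from limma over all named probe sets). Array medians were 6.08 to 6.11. Defining spermatid genes were present in every pool. The 11 spermatid markers with a value of their own, among them the acrosomal gene Acrv1 and the flagellar gene Odf1, lay between 10.14 and 12.36 in all arrays.

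Prm1, Prm2, Prm3 and Tnp2 lie together within 8889 bases of chromosome 16 (GRCm38.p6, 10787935 to 10796823), all on the minus strand, in the order Tnp2, Prm3, Prm2, Prm1 along the chromosome. Tnp1 lies on chromosome 1 (73015074 to 73015899), Brdt on chromosome 5 (107331116 to 107387061) and Chd5 on chromosome 4 (152338646 to 152390194). Chd5 thus shares its chromosome with Azin2 (128930233 to 128962456), 23.4 Mb away. The stretch from 100 bases before to 20 bases after the start is shown for the 4 genes of the cluster and for Tnp1. It shows which of the marked elements each promoter holds, apart from the levels of the genes. Sequences are from RefSeq (GRCm38.p6), 5′ to 3′ on the strand of the gene, and capitals mark TGACNTCA on either strand, a form of the cAMP response element that the spermatid activator CREM binds, and TATA between 40 and 20 bases before the start.
Prm1: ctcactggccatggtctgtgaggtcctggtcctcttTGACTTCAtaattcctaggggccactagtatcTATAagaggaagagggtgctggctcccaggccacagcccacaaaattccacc
Prm2: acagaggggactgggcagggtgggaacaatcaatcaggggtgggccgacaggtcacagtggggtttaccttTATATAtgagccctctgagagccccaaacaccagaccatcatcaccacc
Prm3: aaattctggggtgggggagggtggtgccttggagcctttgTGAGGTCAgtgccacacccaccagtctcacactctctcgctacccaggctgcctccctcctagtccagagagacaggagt
Tnp1: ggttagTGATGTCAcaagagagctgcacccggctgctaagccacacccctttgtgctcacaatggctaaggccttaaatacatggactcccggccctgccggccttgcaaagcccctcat
Tnp2: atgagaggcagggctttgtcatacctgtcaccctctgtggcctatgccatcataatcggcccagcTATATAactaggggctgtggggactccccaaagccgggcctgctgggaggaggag
The windows are chr16:10796804-10796923, chr16:10792086-10792205, chr16:10790895-10791014, chr1:73015880-73015999 and chr16:10788636-10788755, in the order printed. In the full window of 250 bases before to 50 after the start, TGACNTCA was found in 3 of the 7 genes (Prm1, Prm3 and Tnp1) and in 10% of 27025 genes. TATA at that place was found in 3 of the 7 (Prm1, Prm2 and Tnp2) and in 6.91% of all genes. Only Prm1 held both. The perfect palindrome TGACGTCA was in none of the 7 and in 2.03% of all genes. A match of letters is not evidence of a bound site.

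None of the 7 genes differed between KO and WT testes past an adjusted p of 0.05 from limma, and none at an unadjusted p under 0.05. Over all named probe sets 0.00433% passed the first threshold and 4.1% the second. None combined a fold of 1.5 with such a p, which 0.0823% of all named probe sets did. The signal of the 7 genes in KO testes was between 94.5% (Chd5) and 102% (Prm2) of that in WT testes. For all 7 the 95% interval of the difference lay inside a fold of 1.2 in both directions, as it did for 71.9% of all named probe sets. Of the 7, 5 had a log2 fold change below 0 (43.1% of all named probe sets did) and 2 above, with a median log2 fold change of -0.021 and a median over all named probe sets of 0.011.

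Prm1, whose arginine-rich product binds DNA directly in the sperm nucleus, was at 12.338 and 12.333 in KO replicates 1 and 2, against 12.397 and 12.379 in WT replicates 1 and 2. Each KO pool was lower than each WT pool, and the gap between the genotypes was wider than that between the pools of either. The log2 fold change was -0.053 (standard error 0.048, 95% interval -0.175 to 0.070, unadjusted p = 0.319 and adjusted p = 0.9995 from limma), or 96.4% of the WT signal. By the methods' t-test, which uses only the spread of this probe set, the unadjusted p was 0.0303 (adjusted p = 0.993), where 5% of all named probe sets had a p under 0.05. That test gave an interval of -0.093 to -0.012. The exact permutation test, two-sided, gave p = 0.333, the smallest that 2 pools against 2 allow.

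Prm2 is the second protamine, made as a precursor that is cleaved on the DNA. Its only probe set is also assigned to Wdr19, a gene of ciliary transport, and the RefSeq transcript assigned to the probe set is that of Prm2 alone. It was at 12.544 and 12.545 in KO replicates 1 and 2, against 12.532 and 12.507 in WT replicates 1 and 2. Both KO pools were higher, by a log2 fold change of 0.025 (standard error 0.048, 95% interval -0.098 to 0.148, unadjusted p = 0.624 from limma). The probe set that Wdr19 has for itself was at 9.914 and 9.944 in KO, against 9.941 and 10.085 in WT (log2 fold change -0.084, unadjusted p = 0.264 from limma). It ran the other way from the shared one.

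Prm3 lies between Prm2 and Tnp2 and in mice encodes an acidic protein of the spermatid cytoplasm, unlike its basic neighbours. It was at 9.214 and 9.178 in KO replicates 1 and 2, against 9.175 and 9.303 in WT replicates 1 and 2. The WT pools lay 0.127 apart, one on each side of the KO pools. Its log2 fold change was -0.043 (standard error 0.063, 95% interval -0.206 to 0.120, unadjusted p = 0.525 from limma), and it was 0.021 without WT replicate 2.

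Tnp1, the more abundant transition protein, had the narrowest range of the 7 genes. It was at 11.599 and 11.608 in KO replicates 1 and 2, against 11.594 and 11.603 in WT replicates 1 and 2. The log2 fold change was 0.0048 (standard error 0.047, 95% interval -0.117 to 0.127, unadjusted p = 0.924 from limma), within the spread of the pools. Tnp2, a zinc-binding transition protein, was at 11.972 and 11.957 in KO testes, against 11.976 and 11.994 in WT testes. Each KO pool was lower than each WT pool. Its log2 fold change was -0.021 (standard error 0.048, 95% interval -0.144 to 0.102, unadjusted p = 0.678 from limma).

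Brdt, the testis-specific bromodomain protein that binds acetylated histones, was at 9.542 and 9.543 in KO replicates 1 and 2, against 9.531 and 9.577 in WT replicates 1 and 2. The WT pools enclosed the KO pools. The log2 fold change was -0.011 (standard error 0.049, 95% interval -0.138 to 0.116, unadjusted p = 0.830 from limma), and it was 0.012 without WT replicate 2. Chd5, a chromatin remodeler of spermatids and neurons, was at 10.685 and 10.714 in KO testes, against 10.710 and 10.853 in WT testes. KO replicate 2 lay above WT replicate 1, so that the genotypes overlapped. Chd5 had the largest difference of the 7 genes, a log2 fold change of -0.081 (standard error 0.066, 95% interval -0.252 to 0.089, unadjusted p = 0.275 from limma). Leaving out WT replicate 2 gave -0.0095, and leaving out WT replicate 1 gave -0.153. Of all named probe sets, 73.4% had a difference no larger than that of Chd5.

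**Figure D1:**
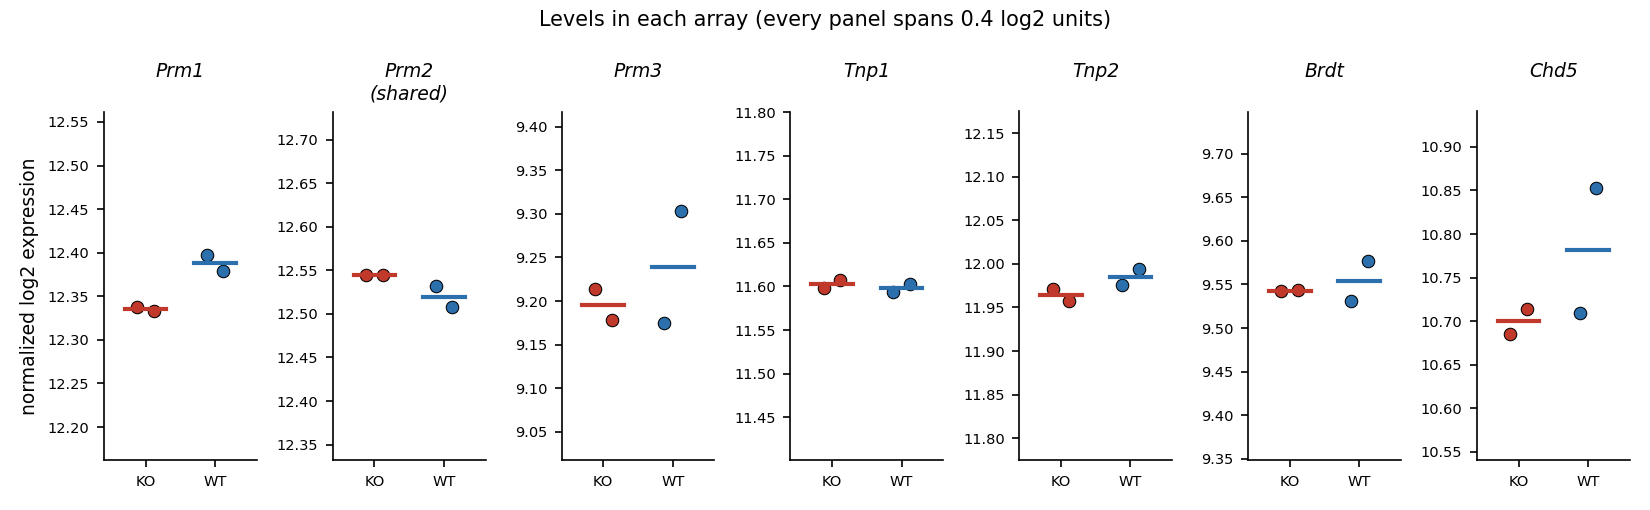
Normalized log2 expression (vertical axes, each spanning 0.4 units) of the 7 genes, with KO in red on the left and WT in blue on the right of each panel; points are arrays (pools of 3 mice) and bars are means of 2 arrays. The genotypes do not overlap for Prm1, Prm2 and Tnp2, and WT replicate 2 stands above the other arrays for Prm3 and Chd5.

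The genotypes did not overlap for 3 of the 7 genes. KO was higher for 1 of them (Prm2, beside 20.1% of all named probe sets) and lower for 2 (Prm1 and Tnp2, beside 12.3%), and 32.5% of all named probe sets were without overlap in one direction or the other. In each of the 7 genes the pools of WT testes lay farther apart than those of KO testes. The gap between KO pools ranged from 0.00048 (Prm2) to 0.035 (Prm3), and that between WT pools from 0.0095 (Tnp1) to 0.143 (Chd5). WT replicate 2 was the highest array for 4 genes (Prm3, Tnp2, Brdt and Chd5) and the lowest for Prm2. The residual SD was 0.0066 to 0.073 for the 7 genes, and 0.059 at the median of all named probe sets. For 5 of the 7 it was below the 0.061 that limma takes as its prior, and for Prm3 (0.066) and Chd5 (0.073) it was above. The prior has the same weight for each gene, so that all 7 intervals rest in large part on the spread of other probe sets. It narrowed the intervals of Prm3 and Chd5 and widened those of the 5. On their own spread alone, the interval of Prm3 reached a fold of 1.25 and that of Chd5 1.32, against 1.15 and 1.19 by limma.

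**Figure D2:**
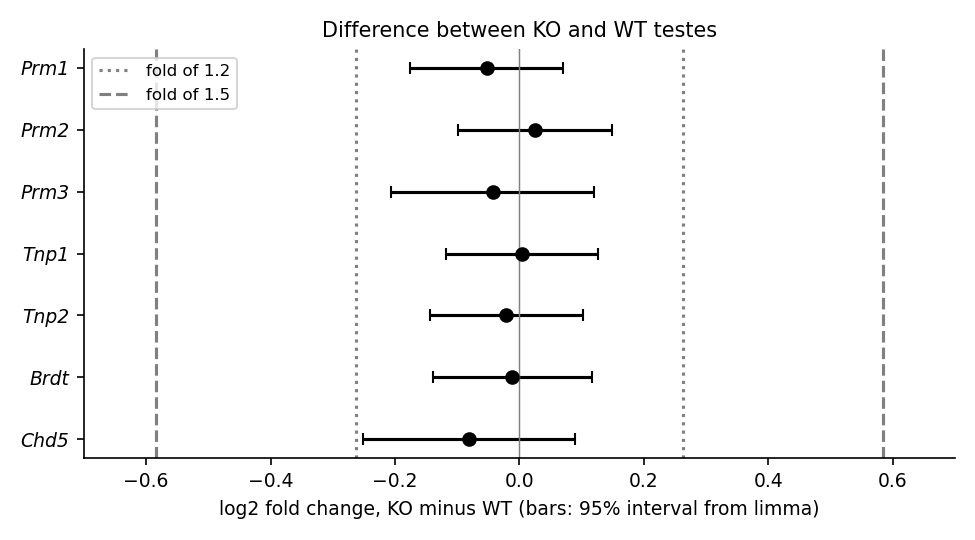
Difference on the log2 scale, KO minus WT, along the horizontal axis for each of the 7 genes, with 95% intervals from limma (n = 2 arrays a genotype). All intervals include 0 and lie between the dotted lines at a fold of 1.2; the lowest bound is that of Chd5, at -0.252.

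The balance of the 2 protamines was examined after the values were seen, as the change in the difference between their probe sets within each array. The log2 signal of Prm1 minus that of the probe set of Prm2 was -0.206 and -0.212 in KO replicates 1 and 2, against -0.135 and -0.128 in WT replicates 1 and 2. The change of -0.078, a fold of 1.06, exceeded the gap between pools of either genotype. Over the 21 pairs that the 7 genes form, the changes ranged in size from 0.0095 (Prm1 and Prm3) to 0.106 (Prm2 and Chd5). The genotypes did not overlap for 10 of the 21 pairs, that of Prm1 and Prm2 among them. The share without overlap among pairs of other probe sets was not computed, so that this count has no background to be read against. Of single named probe sets, 32.5% were without overlap. The pairs share their genes and are not independent. The change was not tested, and a difference between probe sets does not tell which of them moved.

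Prm2 and Prm1 were bright probe sets. The highest value on an array was between 12.80 and 12.89, and Prm2 lay 0.254 to 0.356 below it and Prm1 0.460 to 0.491. The deposited values carry no mark of saturated probes, and whether differences are compressed near the top of the scale was not tested. Prm3, Brdt and Chd5 lay at least 2.00 below the highest value.

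Other genes of the exchange of histones for protamines were set beside the 7. On 3 lists of histone variants of the testis, of factors that acetylate, mark or remove spermatid histones, and of regulators of protamine mRNA, 44 of 47 genes had a value of their own. None of the 44 passed an adjusted p of 0.05 or an unadjusted p under 0.05 from limma, and the smallest unadjusted p was 0.0921. Their log2 fold changes lay between -0.110 and 0.115. The 95% intervals of all 44 lay inside a fold of 1.5 (97.8% of all named probe sets did). Those of 40 lay inside a fold of 1.2 (71.9% of all named probe sets did). For 14 of the 44 the genotypes did not overlap, a share near that of all named probe sets.

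Of 9 measured histone variants 6 were above and 3 below 0, with a median of 0.018. H2ax, the histone phosphorylated at DNA breaks, was at 8.734 and 8.720 in KO testes, against 8.649 and 8.631 in WT (its log2 fold change was 0.087, unadjusted p = 0.127 from limma). KO was above WT in all pools. H1f7, a linker histone of spermatids, had the lowest log2 fold change of the list, -0.012 (unadjusted p = 0.843 from limma). H2bc1, the testis form of H2B that precedes the transition proteins, was at 12.082 and 12.061 in KO testes, against 12.048 and 12.028 in WT testes. H2bc1 was named after its values were seen, as a partner of the transition proteins. H1f9 and H2al3 have no probe set of their own here.

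Among 22 measured factors of histone acetylation and removal, 7 were above and 15 below 0, with a median of -0.012. Cecr2, a bromodomain remodeler, and the deacetylase gene Sirt1 had the highest log2 fold changes, 0.115 (unadjusted p = 0.0996 from limma) and 0.101 (unadjusted p = 0.0921 from limma). Epc1, a subunit of the NuA4 acetyltransferase complex, and Top2b, a topoisomerase, had the lowest, at -0.110 (unadjusted p = 0.108 from limma) and -0.067 (unadjusted p = 0.428 from limma). Top2b was at 8.194 and 8.113 in KO replicates 1 and 2, against 8.132 and 8.308 in WT replicates 1 and 2, and the genotypes overlapped. Among 13 regulators of transcription and storage, 9 were above and 4 below 0, with a median of 0.013. The highest were Tarbp2, an RNA-binding protein needed for protamine translation, at 0.097 (unadjusted p = 0.140 from limma), and Taf7l, a germ cell TFIID subunit, at 0.075. The lowest were Paip2, which restrains the poly(A)-binding protein, at -0.073, and Fhl5, the coactivator of CREM, at -0.049. Crem itself was at 10.788 and 10.734 in KO testes, against 10.686 and 10.785 in WT testes, and overlapped. It was named after its values were seen, as the activator whose site is marked above.

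**Figure D3:**
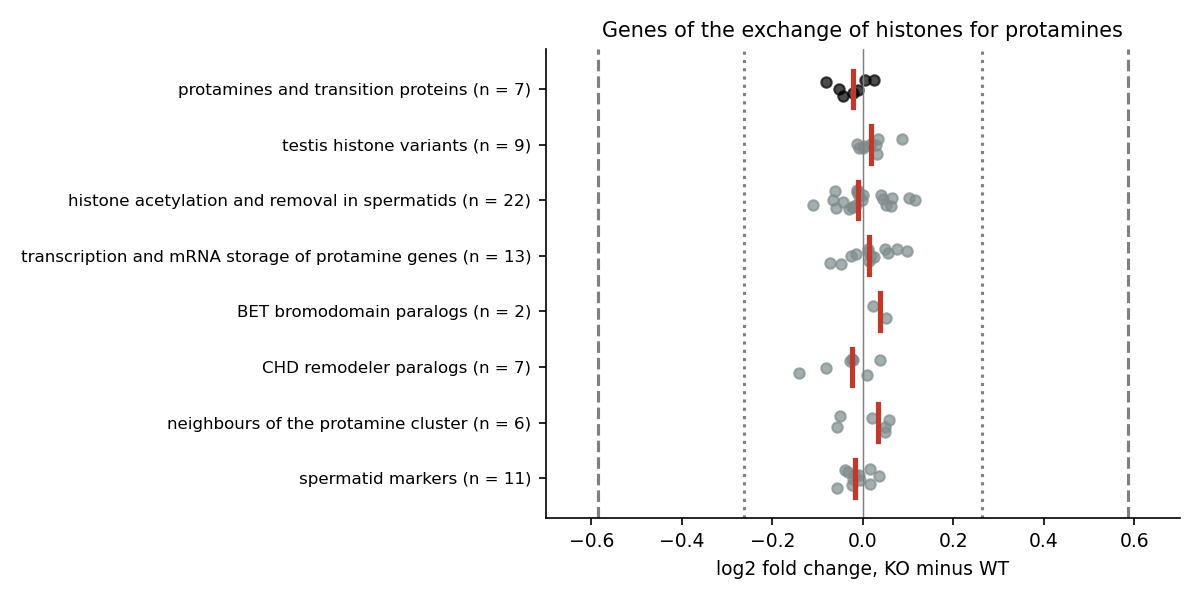
Difference on the log2 scale, KO minus WT, along the horizontal axis for the 7 genes (black) and related genes (grey). Points are genes, red bars are medians, dotted lines mark a fold of 1.2 and dashed lines a fold of 1.5; no point reaches a dotted line.

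The relatives of Brdt and Chd5 were compared to see whether their families moved. Brd2 and Brd3, broadly expressed relatives of Brdt, had log2 fold changes of 0.023 and 0.051. Of 7 measured relatives of Chd5, 2 were above 0 (Chd6 at 0.038 and Chd3 at 0.0099) and 5 below, with Chd2 at -0.140, Chd9 at -0.080, Chd1 at -0.028, Chd8 at -0.024 and Chd4 at -0.023. None had an unadjusted p under 0.05 from limma, and the smallest, that of Chd2, was 0.190. The WT pools of Chd2 were at 7.285 and 7.509, and WT replicate 2 was its highest array, as it was for Chd5. Chd7 has no probe set of its own here.

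Genes beside the protamine cluster on chromosome 16 had log2 fold changes of -0.058 for Socs1, a feedback inhibitor of cytokine signals and the nearest of them to Tnp2, and 0.058 for Rmi2, 0.020 for Litaf, 0.048 for Clec16a, 0.049 for Txndc11 and -0.050 for Snn. The smallest unadjusted p of these 6 was 0.350 from limma.

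The cellular make-up of the pools was followed with marker lists, whose part in the values of the 7 genes was not tested. Relative to the mean of the 4 arrays, the 7 genes averaged -0.012 and -0.014 in KO replicates 1 and 2, against -0.0087 and 0.034 in WT replicates 1 and 2. The 11 spermatid markers with a value of their own averaged 0.0017 and -0.015 in KO replicates 1 and 2, against -0.014 and 0.027 in WT replicates 1 and 2, so that WT replicate 2 was the highest array of both lists. Their median log2 fold change was -0.018, with 3 above and 8 below 0, and none had an unadjusted p under 0.05 from limma. Izumo1, the sperm protein that binds the egg, was the highest at 0.035 and Cabs1 the lowest at -0.057. Smcp, a protein of the sperm mitochondrial capsule, was at -0.039 and Acrv1 at 0.016.

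Among the marker lists, the Leydig cell list had the widest gap between KO pools and the macrophage list the widest gap between WT pools. The Leydig cell list rested on 5 of 7 genes, as Insl3 and Lhcgr have no probe set of their own here. Macrophage markers averaged -0.213 and 0.062 in KO replicates 1 and 2, against -0.074 and 0.225 in WT replicates 1 and 2, and Leydig cell markers -0.191 and 0.120 in KO, against 0.092 and -0.020 in WT. Sertoli cell markers were at -0.014 and 0.099 in KO and at 0.024 and -0.109 in WT, spermatocyte markers at 0.058 and -0.028 in KO and at -0.020 and -0.010 in WT, and spermatogonia markers at -0.0066 and 0.0033 in KO and at 0.072 and -0.069 in WT. WT replicate 2 was thus the highest array for macrophages and the lowest for Sertoli cells and spermatogonia. None of these genes had an unadjusted p under 0.05 from limma. The extremes were Cd68 at -0.253 and Cd163 at -0.029 for macrophages, Hsd3b1 at -0.137 and Cyp17a1 at -0.025 for Leydig cells, Amh at 0.211 and Amhr2 at -0.0031 for Sertoli cells, Sycp3 at 0.084 and Meiob at -0.056 for spermatocytes, and Uchl1 at 0.150 and Kit at -0.161 for spermatogonia. Epididymis markers, a sign of tissue carried over at dissection, lay between 4.11 and 6.70 in all arrays, with Rnase10 at -0.113 and Spint4 at 0.042. The genotypes did not overlap for any of these 5 genes, 3 lower and 2 higher in KO testes. Over all named probe sets 32.5% were without overlap. The smallest unadjusted p of the 5 was 0.0743 from limma. All of them but Rnase10 lay below the array medians of 6.08 to 6.11 in every array. The part of such tissue in the values of the 7 genes was not tested.

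**Figure D4:**
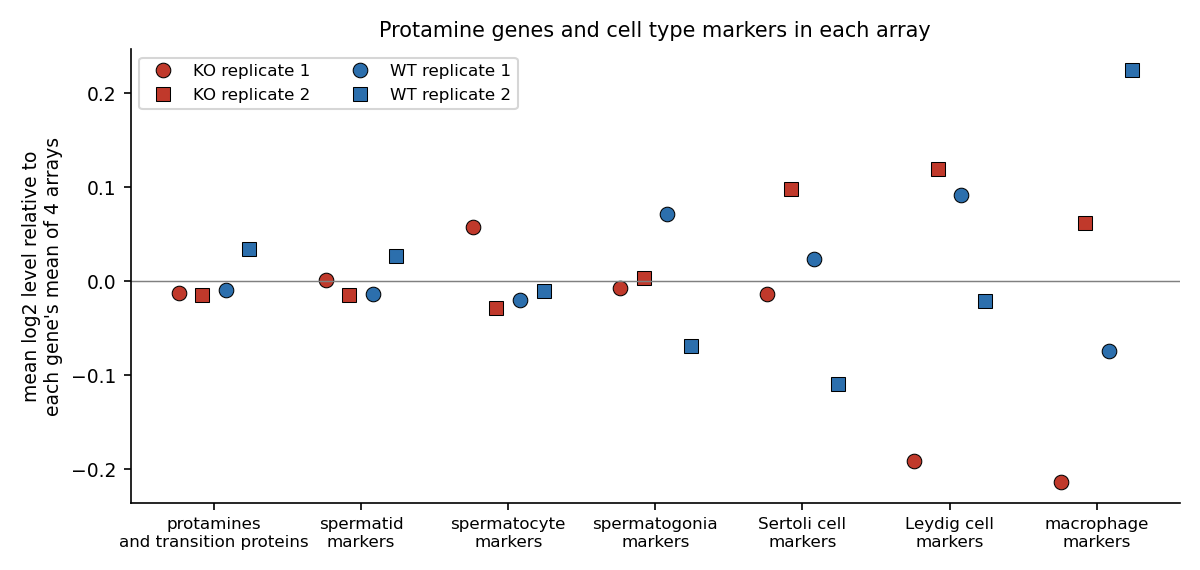
Mean log2 level of each list relative to each gene's mean of the 4 arrays (vertical axis), with KO arrays in red and WT arrays in blue; circles are replicate 1 and squares replicate 2. The 7 protamine, transition protein and chromatin genes stay between -0.014 and 0.034, and the macrophage markers range from -0.213 to 0.225.

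The genes whose pattern over the 4 arrays was most like that of each member with a probe set of its own were sought among 5681 other probe sets with a range of at least 0.2. Prm2, whose probe set is shared, was left out. By Pearson's r over 4 arrays they were Layn for Prm1, Fcgr2b for Prm3, Cdh6 for Tnp1, Nars2 for Tnp2, Mtm1 for Brdt and Akap9 for Chd5, each with an r between 0.9997 and 0.9999. For each of these 6 members between 16 and 52 probe sets had an r over 0.99, so that 4 arrays do not single out a partner.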

How the data were processed

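RNA of 2 KO and 2 WT testis pools was measured on Mouse Gene 1.1 ST arrays. Each deposited value is the log2 signal of a probe set, which the authors made with RMA (background correction, normalization between arrays and summarization of probes). The submitters' processing notes also name Partek 6.13.1224. The methods name Transcriptome Analysis Control as software, with Gene Atlas Instrument Control. The labels describe biotinylated cRNA from an IVT kit, and the methods amplified cDNA. The genome build and annotation are not given in the sources used here. The number of arrays limits the precision.

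Gene names came from the annotation of the platform, with symbols updated through gene identifiers (GRCm38.p6). Of 35556 probe sets, 21218 had 1 symbol, 1881 several and 12457 none. The genotypes were compared with limma 3.58.1 in R 4.3.3 (lmFit and eBayes, no filter) over the 23099 named probe sets, with Benjamini-Hochberg adjustment. The fit was run on data simulated with limma's own estimates of spread, which cannot show how well it holds for these pools. A gene with several probe sets took the one with the highest mean. The labels do not say that the pools came from separate litters, so that p-values measure the spread between pools. The members and lists were chosen with earlier results of these data known. Named genes were all members, all paralogs and neighbours, and the highest and lowest of each list (2 each way in lists of over 10 measured genes). Alternatives were an intensity trend, robust eBayes, Student's t-test, quantile normalization and centring. Others were leaving out dim probe sets, testing unnamed probe sets too, a replicate block and each array left out. Figures were drawn with matplotlib 3.10.9.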

Additional observations from a re-analysis of the deposited data

How the results depend on the processing

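For all 7 genes no adjusted p under 0.05 and no fold of 1.5 at an unadjusted p under 0.05 was found under any of the 12 alternatives to the fit, nor at a fold of 1.2, and all 95% intervals stayed inside a fold of 1.5. An unadjusted p under 0.05 was found once, for Prm1 by Student's t-test (0.0303). Under that test 5 of the 7 intervals lay inside a fold of 1.2, and the widest, that of Chd5, reached 1.32. With every probe set tested 6 of the 7 did, and with arrays left out 5 to 7. The median log2 fold change of the 7 genes ranged from -0.034 to 0.0095 when arrays were left out, the lone array of a genotype being assumed to vary like the other. It was 0.0095 without WT replicate 2, where Prm3 (range -0.107 to 0.021) and Brdt (range -0.034 to 0.012) changed sign; the cause was not tested. Azin2 kept its log2 fold change of -2.83 but not its adjusted p by Student's t-test (0.868) and by limma with every probe set tested (0.0707). Its log2 fold change ranged from -2.94 to -2.72 with arrays left out. Its adjusted p was not kept without WT replicate 1 or without WT replicate 2. With arrays left out, list medians ranged from -0.0047 to 0.043 for histone variants, -0.019 to 0.021 for histone acetylation and removal, 0.0050 to 0.021 for regulators of protamine mRNA, -0.040 to -0.0031 for spermatid markers, -0.186 to 0.092 for Leydig cell markers and -0.329 to 0.018 for macrophage markers. The replicate numbers are shared by the genotypes but are not stated to pair them, and the deviations of equal numbers correlated at -0.082. With the replicate block 0 of the 7 genes passed an adjusted p of 0.05, at a median log2 fold change of -0.021 and with Azin2 at -2.83. For 4 of the 7 genes the difference was smaller than the wider gap between pools of a genotype, and for Prm1, Prm2 and Tnp2 it was larger. With 2 arrays a genotype, none of the 7 differences could be resolved past an adjusted p of 0.05.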
